A study of Mus musculus with 12 samples.

Results

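The genes described here are 39 members of the chemokine system, 21 chemokines and 18 chemokine receptors, taken by name from a fixed list. The list was chosen with earlier results of these data known. Every member was found among the 45706 genes counted. Sequencing of polyA RNA measured them in mouse T cells of 2 kinds, conventional and regulatory, and 2 genotypes, WT and the Coronin1A knockout, called KO here. Coronin 1, encoded by Coro1a, binds actin filaments. Each of the 4 groups held 3 libraries: WT conventional, KO conventional, WT regulatory and KO regulatory. The labels used here name no treatment, strain, age, organ or sort, and do not say whether the knockout is confined to T cells or whether replicates were separate animals. P-values therefore measure the spread between these libraries, which is not only technical: every group held both libraries with mostly Xist reads, as in female cells, and libraries with mostly Y-linked reads. All 18 receptors and 16 of the 21 chemokines had enough reads to be tested; Ccl2, Ccl19, Cxcl1, Cxcl2 and Cxcl14 did not.

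Chemokines are small secreted proteins that guide cell movement by binding G protein-coupled receptors on leukocytes. They are classed by the spacing of their conserved cysteines as CC, CXC, XC and CX3C chemokines. Naive T cells enter lymph nodes with CCR7, follicular helper cells and B cells enter follicles with CXCR5, and effector cells carry inflammatory receptors such as CXCR3 and CCR2. Regulatory T cells use CCR4, CCR6 and CCR8 among others, while dendritic, stromal and endothelial cells make many of the ligands. Atypical receptors such as ACKR3 bind chemokines without the usual G protein signal and remove them. Migrating cells respond to these signals by remodelling actin.

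Libraries held 19686870 (WT regulatory replicate 1) to 33404302 counts in genes. Values are CPM, the counts of a gene relative to the TMM-scaled gene counts of its library. The targeted gene, Coro1a, stood at 2124, 2361 and 2399 CPM in WT conventional libraries, against 44.1, 47.3 and 44.1 CPM in their KO counterparts. Regulatory libraries read 2712, 2503 and 2312 CPM in WT, against 20.9, 28.8 and 30.4 CPM in KO. Both cell types carried their defining markers: Cd4 stood at 1176 ± 31.4 CPM in WT conventional libraries, 719.5 ± 74.6 CPM in their KO counterparts, and 494 ± 66.9 and 419 ± 71.6 CPM in WT and KO regulatory ones, and Foxp3 at 443 to 642 CPM in regulatory and 21.0 to 66.2 CPM in conventional libraries. Regulatory libraries of both genotypes held B cell transcripts, with 7 markers summing to 3683 ± 699 CPM in WT and 3817 ± 477 in KO, against 3.79 ± 0.645 and 32.8 ± 9.54 CPM (SD, n = 3 throughout) in conventional ones. KO conventional libraries held more myeloid and NK cell transcripts than WT ones: 10 neutrophil markers summed to 10.8 ± 4.83 in WT and 444 ± 180.2 CPM in KO, 10 macrophage and monocyte markers to 329 ± 78.6 and 2336 ± 949.7, and 9 NK markers to 103 ± 12.6 in WT against 542 ± 159 in KO. In that comparison 10 of 10, 10 of 10 and 9 of 9 of these markers were called higher, beside 23.2% of all genes, and none had 0 reads in any group. In the regulatory comparison 1, 0 and 1 of them were called higher. Markers of regulatory T cells, 3 genes, shifted likewise between the conventional groups. Their sum averaged 80.1 ± 21.8 CPM without the knockout but 255 ± 69.5 CPM with it, and 3 of 3 were called higher. In the regulatory comparison 0 of these 3 were called, beside 7.77% of all genes. The 6 T cell markers went the other way, from 3185 ± 149.97 CPM in WT to 2122 ± 184 CPM in KO conventional libraries. There 5 of 6 were called lower, beside 25.5% of all genes. In regulatory libraries their sum went from 2079 ± 346 to 1467 ± 332 CPM, with 1 of 6 called lower, beside 3.77% of all genes. The part of these shifts in cell markers in the chemokine and receptor values was not tested. This includes the receptors linked above to regulatory T cells (Ccr4, Ccr6 and Ccr8) and Cxcr5. In bulk RNA, more cells of a type and more RNA per cell cannot be told apart. Xist exceeded the summed Y-linked genes in 2 of 3 conventional libraries of each genotype (1211 to 1746 CPM) and in 1 of 3 regulatory libraries of each genotype (764 CPM in WT replicate 3 and 576 CPM in KO replicate 1). The mix was thus the same in WT and KO and differed between the cell types. A sex term in the fit kept 101 of the 102 called member results. WT regulatory replicate 3 and KO regulatory replicate 1 held Xist and Y-linked reads together, at 10 CPM or more each, and leaving out this pair kept 97 of the 102. At 1 CPM or more each, WT regulatory replicate 1 and KO regulatory replicate 2 did so too, with Xist at 1.30 and 1.51 CPM. Leaving out these 4 mixed libraries, which leaves 1 library in each regulatory group and assumes that it varies like the others, kept 81. Calls lost in these fits are given beside each result.

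**Figure D1:**
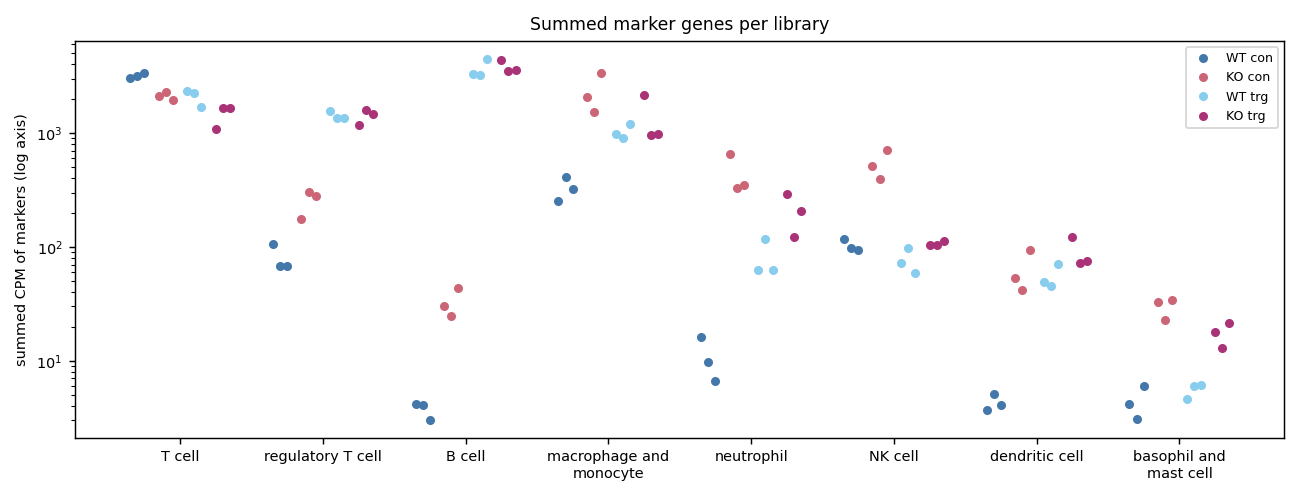
Summed CPM of marker genes (log axis) for 8 cell types in each of the 12 libraries, 1 point per library, coloured by group. B cell sums lie at 3250 to 4489 CPM in regulatory libraries and 3.04 to 43.4 CPM in conventional ones, and neutrophil, macrophage and NK sums are higher in KO than in WT conventional libraries.

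Most of the listed members were higher in KO than in WT conventional cells, and few were called in regulatory cells. The counts hold for this list, which was chosen with earlier results known. Of 12 further family genes tested, 1 was called in conventional cells (8.33%). In conventional cells, 14 of 18 receptors and 11 of 16 tested chemokines were higher in KO, and the single member called lower was Ccr7. The median log2 fold change was 2.09 over receptors and 2.13 over chemokines (2.12 with genes near 0 at their counting limit), beside -0.05 over all 15922 genes tested. Of all genes 48.6% were called in this comparison, 23.2% higher and 25.5% lower. Calls are at an adjusted p under 0.05 by edgeR's quasi-likelihood test with Benjamini-Hochberg adjustment over all genes. In regulatory cells 2 receptors and 4 chemokines were higher in KO and 0 were lower, with medians of 0.52 and 0.71 against 0.00 over all genes, of which 7.77% were called (4% higher). The called share was 11.1% of receptors, near that background, and 25% of chemokines. The difference between the KO effects was itself tested: it was called for 16 members with a lower effect in regulatory cells and for Ccr7 in the other direction, against 12.2% and 9.03% of all genes.

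The KO against WT calls depend on the scaling. Scaling to the summed counts of 6 T cell genes moved the median log2 fold change of all genes to 0.53 between conventional groups and 0.53 between regulatory groups. All genes then split into 7001 higher and 60 lower in place of 3687 and 4056 in conventional cells, and 5163 and 31 in place of 637 and 600 in regulatory cells. Members were then 29 higher and 1 lower in conventional cells, with a median of 2.71, and 17 higher and 0 lower in regulatory cells, with a median of 1.11. For the difference of effects, genes split into 27 higher and 835 lower in place of 1438 and 1935, with 0 and 15 members. Every member called under TMM scaling kept its direction under this scaling in all 5 comparisons.

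**Figure D2:**
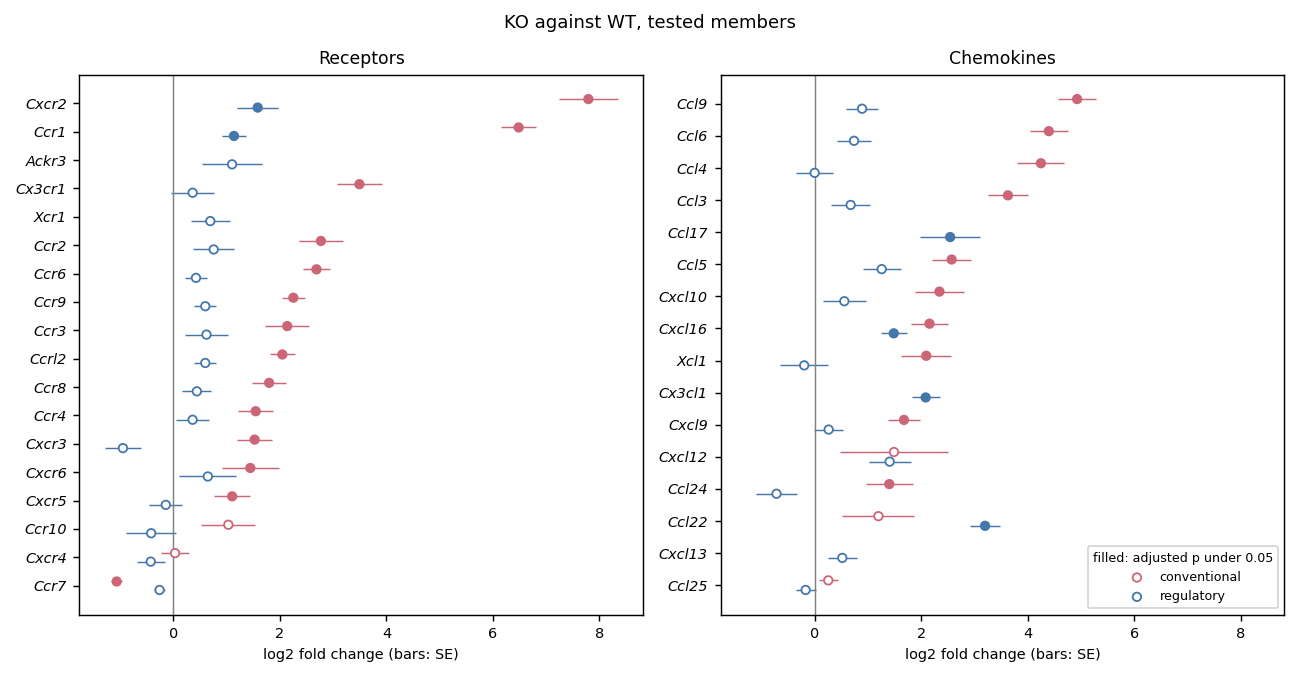
Log2 fold change of KO against WT with its SE for the 18 receptors and 16 tested chemokines, in conventional (red) and regulatory (blue) cells. Filled points have an adjusted p under 0.05, and a gene has no point where a group compared held at most 3 reads in all. Cxcr2 and Ccr1 have the largest receptor values in conventional cells, while Ccl22 leads in regulatory cells.

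Among homing receptors, Ccr7, which brings naive T cells into lymph nodes, fell in KO conventional cells. The WT conventional libraries gave 593, 642 and 601 CPM and the KO conventional ones 314, 303 and 259 CPM, so the groups did not overlap. This was a log2 difference of -1.07 (SE 0.11, adjusted p = 1.93e-05). It was -0.48 (adjusted p = 0.0237) with T cell gene scaling. The summed T cell markers and Cd4 were also lower in these KO libraries, as given above, and their part in the fall of Ccr7 was not tested beyond that scaling. In regulatory cells Ccr7 was 334, 307 and 260.1 CPM in WT, against 227, 240.3 and 285 CPM in KO, overlapping ranges with no call (adjusted p = 0.154). The difference of the KO effects was 0.81 (SE 0.15, adjusted p = 0.00392), and its call was lost with T cell gene scaling (adjusted p = 0.0644). In WT cells Ccr7 was lower in regulatory than in conventional libraries, at -1.03 (SE 0.11, adjusted p = 4.13e-06). B cells, whose markers were high in the regulatory libraries, also express Ccr7, and their part in this value was not tested.

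Cxcr4, the receptor for the bone marrow and stromal chemokine CXCL12, was 161, 225 and 275 CPM in WT, against 264, 234 and 177 CPM in KO conventional libraries. In regulatory libraries it was 224, 199.7 and 122 CPM in WT, against 162, 112 and 131 CPM in KO. Ranges overlapped in both cell types and neither KO comparison was called (adjusted p = 0.938 and 0.338 by edgeR). In KO cells it was lower in regulatory than in conventional libraries (log2 -0.74, SE 0.26, adjusted p = 0.0281), a call lost with T cell gene scaling at -0.10 (adjusted p = 0.761), without a filter on low counts (adjusted p = 0.0759), without KO conventional replicate 1 (adjusted p = 0.104) or 2 (0.0767), without KO regulatory replicate 3 (0.0782), and without the 4 mixed libraries (0.140).

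Cxcr5, the follicle-homing receptor of B cells and follicular T cells, was high in regulatory libraries. It stood at 263, 257 and 268 CPM in WT regulatory and 258, 218 and 237 CPM in KO regulatory libraries. Conventional libraries gave 29.3, 16.1 and 14.8 CPM in WT, against 22.7, 61.2 and 45.4 CPM in KO. Every regulatory library was thus above every conventional one, by log2 3.71 (SE 0.35, adjusted p = 5.47e-06) in WT. The B cell marker sums moved the same way, as given above. Between conventional groups the ranges overlapped at KO replicate 1, and the called rise of 1.10 (SE 0.33, adjusted p = 0.0197) was lost when WT conventional replicate 2 or 3, or KO conventional replicate 2 or 3, was left out, at adjusted p = 0.0776, 0.0790, 0.0934 and 0.0627. It was also lost with no filter on low counts (adjusted p = 0.0648), in a fit of the conventional groups alone (0.0516), without WT regulatory replicate 3 and KO regulatory replicate 1 (0.0617), and without the 4 mixed libraries (0.120).

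Ccr9, which directs T cells to the small intestine and responds to CCL25, was higher in KO conventional cells. It was 22.1, 19.2 and 14.6 CPM in WT, against 100.4, 83.2 and 83.0 CPM in KO, with no overlap and a log2 difference of 2.25 (SE 0.21, adjusted p = 2.72e-05). Regulatory libraries gave 27.9, 38.8 and 24.7 CPM in WT, against 37.4, 46.3 and 55.0 CPM in KO, where the ranges overlapped. The KO effect was larger in conventional cells, with a difference of -1.65 (SE 0.29, adjusted p = 0.00387).

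Cxcr3, the receptor for interferon-induced chemokines on T helper 1 cells, was 43.4, 27.4 and 25.9 CPM in WT, against 84.5, 102 and 91.9 CPM in KO conventional libraries, a rise of 1.52 (SE 0.33, adjusted p = 0.00392). In regulatory libraries it was 41.3, 58.9 and 28.7 CPM in WT, against 12.5, 25.6 and 28.6 CPM in KO. The highest KO library fell just below the lowest WT library, and the lower KO mean was not called (adjusted p = 0.112). The difference of effects was -2.47 (SE 0.47, adjusted p = 0.00578).

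Ccr2, which recruits monocytes and effector T cells toward CCL2, was 39.4, 25.7 and 19.9 CPM in WT, against 161, 143 and 275 CPM in KO conventional libraries. All KO values lay above all WT values, by log2 2.77 (SE 0.41, adjusted p = 4.14e-04). Regulatory libraries overlapped, with 34.6, 64.0 and 27.7 CPM in WT, against 48.2, 75.1 and 90.5 CPM in KO. The difference of effects, -2.01 (SE 0.55, adjusted p = 0.0277), was lost without any of 5 single libraries (WT conventional replicates 2 and 3, KO conventional replicate 3, WT regulatory replicate 2 and KO regulatory replicate 1), at adjusted p up to 0.0782. It was also lost with no filter on low counts (adjusted p = 0.0828), with the replicate number as a block (0.0529), without WT regulatory replicate 3 and KO regulatory replicate 1 together (0.0588) and without the 4 mixed libraries (0.123). Within KO, Ccr2 was lower in regulatory cells (log2 -1.44, SE 0.39, adjusted p = 0.00722), a call lost without the 4 mixed libraries (adjusted p = 0.155).

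Ccr4, a receptor of T helper 2, skin-homing and regulatory T cells, was 23.0, 13.7 and 10.3 CPM in WT, against 42.7, 46.3 and 48.0 CPM in KO conventional libraries. The rise of 1.54 (SE 0.33, adjusted p = 0.00336) separated the groups completely. In regulatory libraries Ccr4 was 43.3, 44.9 and 29.2 CPM in WT, against 29.9, 58.3 and 62.2 CPM in KO, where KO replicate 1 lay among the WT values. In WT it was higher in regulatory than conventional cells (log2 1.32, SE 0.33, adjusted p = 0.00429), while in KO the corresponding value was not called (adjusted p = 0.720).

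Ccr6 and Ccr8 followed the regulatory libraries in both genotypes. Ccr6, the CCL20 receptor of T helper 17 cells, B cells and part of the regulatory T cells, was 3.77, 2.80 and 1.35 CPM in WT conventional, 16.5, 16.2 and 18.2 CPM in KO conventional, 40.1, 42.6 and 41.7 CPM in WT regulatory and 49.4, 60.6 and 56.8 CPM in KO regulatory libraries. The 4 groups did not overlap, and the KO effect was called in conventional (log2 2.69, SE 0.25, adjusted p = 2.34e-05) but not in regulatory cells (adjusted p = 0.237), with a called difference of -2.26 (SE 0.32, adjusted p = 0.00144) that was lost without the 4 mixed libraries (adjusted p = 0.0631). Ccr8, a receptor of tissue regulatory and T helper 2 cells, was 1.48, 0.945 and 1.28 CPM in WT, against 2.27, 5.72 and 4.92 CPM in KO conventional libraries. Regulatory libraries gave 14.9, 18.0 and 14.9 CPM in WT, against 16.9, 22.1 and 26.0 CPM in KO. Its rise in KO conventional cells was 1.80 (SE 0.32, adjusted p = 0.00109), beside a Foxp3 level of 23.7 ± 3.07 CPM in WT and 50.1 ± 18.9 CPM (SD, n = 3) in KO. The difference of effects for Ccr8 was -1.36 (SE 0.42, adjusted p = 0.0433); it was lost in 10 of the 12 fits that left out 1 library each, all but those without KO conventional replicate 1 or KO regulatory replicate 3, at adjusted p up to 0.112. It was also lost by limma-voom, with no filter on low counts, with the replicate block, without WT regulatory replicate 3 and KO regulatory replicate 1 together and without the 4 mixed libraries (adjusted p = 0.120, 0.0928, 0.0516, 0.0932 and 0.252).

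Cxcr6, the CXCL16 receptor of tissue-resident and effector T cells, varied widely within groups. It was 70.4, 36.2 and 21.5 CPM in WT, against 114, 109.9 and 125 CPM in KO conventional libraries. In WT regulatory libraries it was 32.7, 71.6 and 18.8 CPM, and 32.4, 75.1 and 85.7 CPM in KO regulatory ones. The conventional groups did not overlap and the call was marginal at 1.44 (SE 0.54, adjusted p = 0.0478). It was lost in 7 of the 12 fits without 1 library (WT conventional replicates 2 and 3, each KO conventional replicate, and KO regulatory replicates 1 and 3), at adjusted p up to 0.151, with no filter, the replicate block or a sex term (adjusted p = 0.132, 0.0615 and 0.0794), and without the 4 mixed libraries (0.0512). Ccr10, a skin-homing receptor, stayed at 0.384 to 3.14 CPM in all 12 libraries, was called in neither KO comparison, and was higher in regulatory than conventional WT cells (log2 1.62, SE 0.51, adjusted p = 0.0122). That call was lost without WT conventional replicate 3 (adjusted p = 0.0509) or WT regulatory replicate 2 (adjusted p = 0.103).

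**Figure D3:**
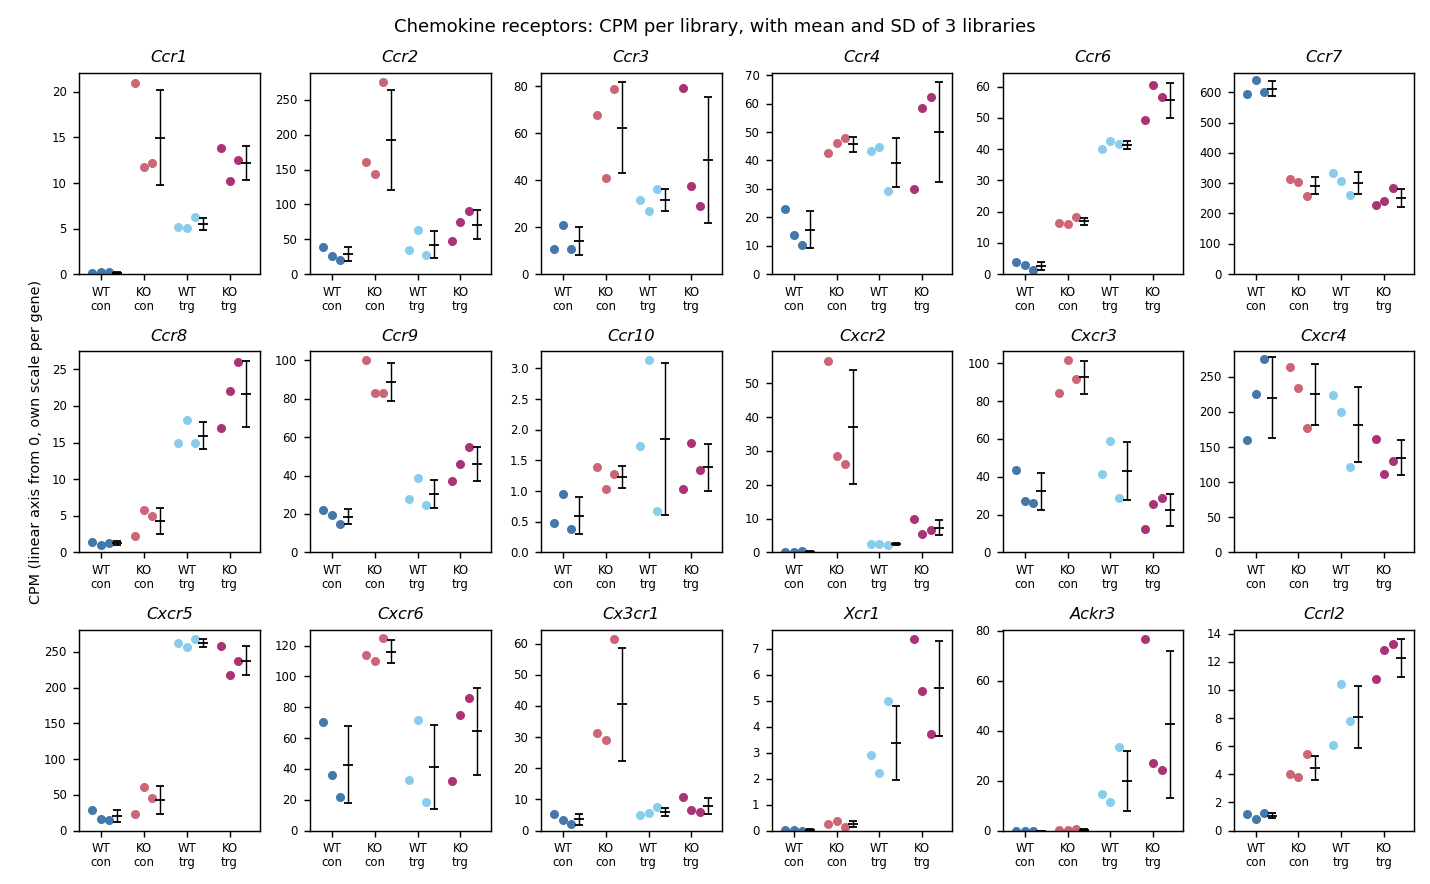
CPM of each of the 18 chemokine receptors (linear axis from 0, a scale of its own per gene) in every library, 3 points per group, with the mean and SD beside them. Ccr7 is highest in WT conventional libraries at 593 to 642 CPM, Cxcr5 in regulatory libraries at 218 to 268 CPM, and Cxcr2, Cx3cr1 and Ccr2 in KO conventional libraries.

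Cxcr2, Ccr1 and Cx3cr1 had the largest called KO effects of the receptors in conventional cells, in the libraries with the higher neutrophil, macrophage and NK cell sums. Cxcr2, the neutrophil receptor for CXCL1 and CXCL2, was 0.101, 0.0326 and 0.352 CPM in WT, against 56.6, 28.5 and 26.3 CPM in KO conventional libraries. The log2 difference was 7.79 (SE 0.55, adjusted p = 5.79e-06), on 15 summed counts in WT and 3903 in KO. Among the KO libraries, replicate 1 had the highest Cxcr2 and also the highest neutrophil sum, with sums of 652, 331 and 350.3 CPM in replicates 1 to 3. In regulatory libraries Cxcr2 was 2.60, 2.49 and 2.26 CPM in WT, against 9.72, 5.47 and 6.75 CPM in KO, beside neutrophil sums of 62.4, 118 and 62.3 and 294, 121 and 205 CPM. These Cxcr2 values did not overlap and were called (log2 1.58, SE 0.39, adjusted p = 0.0379), but the call was lost in 6 of the 12 fits without 1 library (WT conventional replicate 1, each WT regulatory replicate, and KO regulatory replicates 1 and 3; adjusted p up to 0.109), by limma-voom (0.164), with no filter (0.0945), without WT regulatory replicate 3 and KO regulatory replicate 1 together (0.170) and without the 4 mixed libraries (0.440). Its KO effects differed by -6.21 (SE 0.69, adjusted p = 4.58e-04). The part of neutrophils in the Cxcr2 values was not tested.

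Ccr1, an inflammatory receptor of monocytes, neutrophils and other leukocytes for CCL3 and CCL5, was 0.101, 0.196 and 0.192 CPM in WT, against 21.0, 11.7 and 12.2 CPM in KO conventional libraries, a change of 6.48 (SE 0.33, adjusted p = 4.49e-07). It was 5.2, 5.11 and 6.31 CPM in WT, against 13.9, 10.3 and 12.5 CPM in KO regulatory libraries, again without overlap and called at 1.14 (SE 0.22, adjusted p = 0.0132). Leaving out WT regulatory replicate 2 raised the latter to an adjusted p of 0.0525, and leaving out the 4 mixed libraries to 0.176. Of the receptors it is, with Cxcr2, called in both cell types, and its difference of effects was -5.35 (SE 0.41, adjusted p = 5.49e-05).

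Ccr3, the eotaxin receptor of eosinophils and basophils, was 10.9, 21.1 and 10.6 CPM in WT, against 67.5, 40.9 and 78.7 CPM in KO conventional libraries (log2 2.14, SE 0.42, adjusted p = 0.00208). Basophil and mast cell markers, 5 genes of which all were called higher there, summed to 4.43 ± 1.48 CPM in WT and 30.0 ± 6.13 CPM (SD, n = 3) in KO. Of all genes 23.2% were called higher in that comparison, and macrophage and monocyte markers were also higher, as given above. In regulatory libraries Ccr3 was 31.4, 27.1 and 36.2 CPM in WT, against 79.2, 37.5 and 28.9 CPM in KO, overlapping, with KO replicate 1 far above the others. In WT, Ccr3 was higher in regulatory than conventional cells (log2 1.15, SE 0.41, adjusted p = 0.0275), a call lost without WT conventional replicate 1 or 3 or WT regulatory replicate 3, at adjusted p up to 0.0973. The same basophil and mast cell markers summed to 5.61 ± 0.826 CPM in WT and 17.5 ± 4.29 in KO regulatory libraries, mostly Cpa3 and Gata2 reads. Their sum was 18.0, 13.0 and 21.5 CPM in KO regulatory replicates 1 to 3, where the macrophage and monocyte sum was 2156, 957 and 987 CPM. Among KO conventional libraries, replicate 3 had the highest Ccr3 and the highest sum of both lists (34.2 and 3389 CPM). The part of these cells in the Ccr3 values was not tested. The call of Ccr3 by cell type was also lost with no filter (adjusted p = 0.0799) and without the 4 mixed libraries (0.201).

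Cx3cr1, the fractalkine receptor of monocytes, NK cells and cytotoxic T cells, was 5.42, 3.39 and 2.02 CPM in WT, against 31.3, 29.0 and 61.5 CPM in KO conventional libraries. The change was 3.49 (SE 0.42, adjusted p = 1.26e-04), and KO replicate 3, the highest, also had the highest macrophage and NK cell sums (3389 and 711 CPM). The part of these cells in the Cx3cr1 values was not tested. Regulatory libraries overlapped at 4.87, 5.79 and 7.47 CPM in WT, against 10.9, 6.47 and 6.11 CPM in KO, and the difference of effects was -3.13 (SE 0.57, adjusted p = 0.00474), a call lost without the 4 mixed libraries (adjusted p = 0.0957). Xcr1, which marks cross-presenting dendritic cells, was 2.92, 2.23 and 4.99 CPM in WT, against 7.38, 5.38 and 3.71 CPM in KO regulatory libraries. Conventional libraries held 2 Xcr1 reads in WT and 26 in KO over all 3 replicates, a ratio of 11.5-fold (95% interval 2.87 to 99.6) that was called by edgeR (adjusted p = 0.00831) and not by limma-voom (0.0690), and WT regulatory libraries 158-fold (95% interval 43.4 to 1314) the WT conventional level. These intervals cover counting error only. The sum of 7 dendritic cell markers was 4.32 ± 0.759 CPM in WT conventional, 63.1 ± 27.2 in KO conventional, 55.0 ± 13.8 in WT regulatory and 89.7 ± 27.5 CPM (SD, n = 3) in KO regulatory libraries.

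The atypical receptors differed by cell type. Ackr3, which takes up CXCL12, had 0 reads in all 3 WT conventional libraries and 25 in the KO conventional ones. It stood at 14.6, 11.3 and 33.4 CPM in WT, against 76.6, 26.9 and 24.3 CPM in KO regulatory libraries. The WT regulatory level was at least 629-fold higher than the WT conventional one, set against a floor of 3 counts over the group. The highest library of each regulatory group was WT replicate 3 and KO replicate 1, which are the 2 that held Xist and Y-linked reads at 10 CPM or more each. Cdh5, a marker of endothelium, ordered the regulatory libraries of each genotype alike, at 18.1, 8.08 and 43.5 CPM in WT, against 76.6, 31.8 and 20.8 CPM in KO. The part of such cells in the Ackr3 values was not tested. The regulatory KO comparison of Ackr3 was not called (adjusted p = 0.264). Ccrl2, a receptor-like protein that presents chemerin, was 1.14, 0.848 and 1.22 CPM in WT, against 4.05, 3.83 and 5.41 CPM in KO conventional libraries (log2 2.05, SE 0.24, adjusted p = 4.58e-05). It was 6.07, 10.4 and 7.76 CPM in WT, against 10.8, 12.9 and 13.3 CPM in KO regulatory libraries, where the groups did not overlap but the difference was not called (adjusted p = 0.10). The difference of its KO effects was -1.45 (SE 0.31, adjusted p = 0.00780).

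Among the chemokines, 3 neighbours on mouse chromosome 8 rose together in KO regulatory cells. Ccl22 (GRCm38, 94745590 to 94751699), Cx3cl1 (94772009 to 94782427) and Ccl17 (94810453 to 94812036) lie within 66.4 kb on the same strand. CCL22 and CCL17 are the ligands of CCR4 and attract regulatory and T helper 2 cells; CX3CL1, fractalkine, is a membrane-bound ligand of CX3CR1. The 250 bases before the RefSeq start of each gene are shown because all 3 were called higher in KO regulatory cells. In conventional cells Ccl17 alone of the 3 was called. The window of Cxcl10 is given for comparison. All are from GRCm38.p6 and written 5′ to 3′ on the gene's strand. Capitals mark matches on either strand to 5 patterns, which did not overlap in these windows: NF-kB (GGG, any 3 bases, then TTCC), the cAMP response element (TGACGTCA), AP-1 (TGACTCA), interferon response (GAAA, any 2 bases, then GAAA) and the TATA box (TATAAA).
Ccl22 promoter, chr8:94745434-94745683, plus strand: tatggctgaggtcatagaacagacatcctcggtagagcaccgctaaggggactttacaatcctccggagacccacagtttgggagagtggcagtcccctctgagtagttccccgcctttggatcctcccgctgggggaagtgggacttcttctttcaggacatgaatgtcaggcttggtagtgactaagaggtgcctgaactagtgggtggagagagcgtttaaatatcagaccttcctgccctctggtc
Cx3cl1 promoter, chr8:94771930-94772179, plus strand: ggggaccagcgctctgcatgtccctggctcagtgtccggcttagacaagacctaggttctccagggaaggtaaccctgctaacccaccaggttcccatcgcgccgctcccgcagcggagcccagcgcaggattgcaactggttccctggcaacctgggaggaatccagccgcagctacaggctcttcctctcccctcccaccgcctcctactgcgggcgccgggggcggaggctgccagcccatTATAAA
Ccl17 promoter, chr8:94810203-94810452, plus strand: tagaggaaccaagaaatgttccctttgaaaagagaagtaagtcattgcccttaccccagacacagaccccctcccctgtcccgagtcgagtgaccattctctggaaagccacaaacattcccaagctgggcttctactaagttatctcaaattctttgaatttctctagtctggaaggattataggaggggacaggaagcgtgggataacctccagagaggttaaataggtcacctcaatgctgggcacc
Cxcl10 promoter, chr5:92348890-92349139, minus strand: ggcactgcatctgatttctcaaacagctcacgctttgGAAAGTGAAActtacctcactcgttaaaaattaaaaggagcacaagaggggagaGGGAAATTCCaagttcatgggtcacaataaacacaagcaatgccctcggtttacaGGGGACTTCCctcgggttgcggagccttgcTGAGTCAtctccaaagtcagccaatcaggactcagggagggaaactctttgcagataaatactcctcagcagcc
The windows of Ccl22 and Ccl17 held none of the 5 patterns, and that of Cx3cl1 held TATAAA alone, in the 6 bases before the RefSeq start. For Ccl22 and Cx3cl1 the RefSeq start lies downstream of the GENCODE gene start given above. Part of each of these windows is thus inside the gene by the GENCODE coordinates, and sequence before the GENCODE start was not searched in full. Cxcl10 held 2 NF-kB matches, 1 AP-1 match and 1 interferon-response match. Of 32851 promoter windows of this length, 4.65% held the NF-kB pattern, 1.55% the cAMP element, 4.46% the AP-1 pattern, 2.98% the interferon pattern and 12.4% TATAAA. Of the 31 members with a window, 6, 0, 3, 3 and 8 held the pattern in any window. Ccrl2, Ccl25 and Ccr6 have more than 1 window, so these counts of genes are not on the same unit as the shares of windows.

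Ccl22 was 9.42, 11.4 and 7.51 CPM in WT, against 78.6, 62.7 and 119 CPM in KO regulatory libraries, so the lowest KO library was well above the highest WT library. This was the largest KO effect of any tested member in regulatory cells, at log2 3.20 (SE 0.28, adjusted p = 5.50e-04), or 9.19-fold. Conventional libraries gave 0.135, 0.228 and 0.160 CPM in WT, against 0.194, 0.372 and 0.669 CPM in KO, with no call (adjusted p = 0.169). Although the KO effect was called in regulatory cells alone, the difference of effects was not called (log2 2.0, SE 0.83, adjusted p = 0.114).

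Cx3cl1 behaved similarly in regulatory libraries, at 2.38, 2.26 and 2.13 CPM in WT, against 8.69, 9.40 and 10.6 CPM in KO. The groups did not overlap, and the rise was 2.08 (SE 0.26, adjusted p = 0.00170), or 4.24-fold. Conventional libraries held 2 Cx3cl1 reads in WT and 9 in KO in all. Ccl17 was rare: it was 0.108, 0.226 and 0.226 CPM in WT, against 0.656, 1.24 and 1.58 CPM in KO regulatory libraries, a rise of 2.55 (SE 0.56, adjusted p = 0.0197) on 16 and 114 summed counts. The Ccl17 call was lost without WT regulatory replicate 1 or 2 or KO regulatory replicate 3 (adjusted p = 0.0638, 0.0629 and 0.0696). In conventional cells Ccl17 had 1 read in WT and 15 in KO, a ratio of 13.2-fold (95% interval 2.03 to 557); its call there was lost without WT conventional replicate 1 or 2 or KO conventional replicate 1 or 3, at adjusted p up to 0.0961, and by limma-voom (0.0560). The 7 dendritic cell markers in the same regulatory libraries summed to 49.1, 45.1 and 70.8 CPM in WT, against 121, 71.9 and 75.9 CPM in KO, and 0 of 7 were called, beside 7.77% of all genes. Flt3 averaged 9.71 CPM in WT and 21.1 CPM in KO, Zbtb46 9.44 and 19.2, and Batf3 3.92 and 8.36. Itgax and Clec9a also had higher KO means, while Siglech (7.50 and 4.31 CPM) and Clec10a had lower ones. The part of dendritic cells in the rise of these chemokines was not tested. Without the 4 mixed libraries, Ccl22 kept its call in regulatory cells, while Cx3cl1 (adjusted p = 0.0624) and Ccl17 (0.153) lost theirs.

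Cxcl16, a membrane-bound ligand of CXCR6 made by antigen-presenting cells, was the fourth chemokine called in regulatory cells. It stood at 13.2, 14.5 and 13.5 CPM in WT, against 38.4, 28.6 and 48.7 CPM in KO regulatory libraries (log2 1.49, SE 0.24, adjusted p = 0.00620). In conventional libraries it was 0.269, 0.391 and 0.609 CPM in WT, against 1.5, 1.52 and 2.74 CPM in KO (log2 2.16, SE 0.35, adjusted p = 5.96e-04), and neither pair of groups overlapped. With Ccl17, it was a chemokine called in both cell types, and the difference of effects was not called (adjusted p = 0.300). Without the 4 mixed libraries its call in regulatory cells was lost (adjusted p = 0.0935). Regulatory libraries exceeded conventional ones by log2 5.01 in WT and 4.33 in KO, against a background of 39% and 36% of genes called higher in regulatory cells.

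The lymphoid tissue chemokines were near 0 in conventional cells and present in regulatory libraries. Cxcl12, the stromal ligand of CXCR4 and ACKR3, was 11.5, 4.82 and 15.5 CPM in WT, against 38.6, 25.2 and 20.5 CPM in KO regulatory libraries. All KO values lay above all WT values, yet the change of 1.41 (SE 0.39, adjusted p = 0.0561) was not called. In the same libraries 4 of 6 stromal and endothelial markers were called higher in KO and 0 lower, beside 4% and 3.77% of all genes. Col1a2 was 3.25, 2.42 and 4.57 CPM in WT, against 20.3, 9.80 and 10.1 CPM in KO. Conventional libraries held 7 Cxcl12 reads in WT and 23 in KO, and Col1a2 stayed at 0.608 CPM or less there. Of the 6 markers, 3 were called higher and 1 lower in KO conventional cells, beside 23.2% and 25.5% of all genes. Pecam1 was far above Col1a2 there, at 262 ± 6.28 CPM in WT and 215 ± 10.1 CPM in KO. Cxcl13, the follicular ligand of CXCR5, was 2.71, 2.04 and 2.58 CPM in WT, against 4.19, 3.08 and 3.19 CPM in KO regulatory libraries, without overlap and without a call (adjusted p = 0.263). Its WT conventional libraries held 3 reads in all, and WT regulatory libraries 73.3-fold (95% interval 24.7 to 358) that level. Ccl19, a CCR7 ligand, had 0 reads in all 6 conventional libraries and 18 and 56 reads in WT and KO regulatory groups, at least 6.83-fold and 19.8-fold higher. The mouse genome holds near-identical copies of Ccl19, so its counts are uncertain.

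Ccl25, the CCR9 ligand known from thymus and gut epithelium, ran the other way by cell type. It was 4.0, 4.56 and 3.65 CPM in WT, against 4.41, 5.26 and 4.92 CPM in KO conventional libraries, and 1.95, 1.94 and 2.19 CPM in WT, against 1.44, 1.97 and 2.01 CPM in KO regulatory ones. No regulatory library reached a conventional one. The value was -1.0 (SE 0.18, adjusted p = 3.80e-04) in WT and -1.43 (SE 0.18, adjusted p = 2.66e-05) in KO, although the WT call was lost with T cell gene scaling at -0.35 (adjusted p = 0.289). Ccl25 and Cxcl13 were the tested chemokines with the smallest KO effects in conventional cells, at adjusted p = 0.249 and 0.508.

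The inflammatory CC chemokines, of which Ccl5, Ccl9, Ccl6, Ccl3 and Ccl4 lie within 138.9 kb on chromosome 11 (83525778 to 83664683), rose in KO conventional cells. Ccl5, a product of memory, cytotoxic and NK cells, was the most abundant chemokine in conventional libraries per kilobase of exon. It was 57.1, 28.3 and 20.8 CPM in WT, against 210.1, 175 and 246 CPM in KO conventional libraries, a rise of 2.57 (SE 0.37, adjusted p = 3.66e-04). In regulatory libraries Ccl5 was 47.4, 54.7 and 30.3 CPM in WT, against 83.6, 94.3 and 138 CPM in KO. These groups did not overlap either, but the change of 1.26 (SE 0.36, adjusted p = 0.0613) was not called. Within KO, Ccl5 was lower in regulatory than in conventional cells at -1.0 (SE 0.35, adjusted p = 0.0276), a call lost with T cell gene scaling (-0.47, adjusted p = 0.255), with no filter (0.0771), and without KO conventional replicate 1 or 3 or KO regulatory replicate 1 (0.0644, 0.0887 and 0.117). It was also lost without WT regulatory replicate 3 and KO regulatory replicate 1 together (adjusted p = 0.117) and without the 4 mixed libraries (0.429).

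Ccl6 and Ccl9, chemokines of mouse myeloid cells, had larger folds. Ccl6 was 3.13, 3.59 and 4.20 CPM in WT, against 75.1, 52.7 and 103 CPM in KO conventional libraries, and Ccl9 was 1.11, 1.27 and 1.28 and 29.7, 26.2 and 56.1 CPM. The log2 differences were 4.40 (SE 0.36, adjusted p = 1.37e-05) and 4.93 (SE 0.35, adjusted p = 4.79e-06). In both genes KO replicate 3 was the highest and replicate 2 the lowest, which is also the order of the macrophage and monocyte sums (2077, 1543 and 3389 CPM in replicates 1 to 3). Ccl6 was 17.1, 17.5 and 17.7 CPM in WT, against 45.1, 19.7 and 22.6 CPM in KO regulatory libraries, and Ccl9 4.12, 5.27 and 3.35 and 10.3, 6.74 and 6.59 CPM. There KO replicate 1 was the highest for both, as it was for the macrophage sum (2156 CPM). That sum was 957 and 987 CPM in KO regulatory replicates 2 and 3, where Ccl9 did not rise with it. In WT regulatory replicates 1 to 3 the sum was 990, 899 and 1209 CPM, the reverse of the order of Ccl9. The part of these cells in the Ccl6 and Ccl9 values was not tested. The differences of effects were -3.66 (SE 0.47, adjusted p = 8.54e-04) and -4.04 (SE 0.45, adjusted p = 4.29e-04).

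Ccl3 and Ccl4, the CCR1-binding and related inflammatory proteins MIP-1 alpha and beta of activated T cells, NK cells and macrophages, were low. Ccl3 was 0.235, 0.326 and 0.609 CPM in WT, against 4.91, 3.09 and 6.69 CPM in KO conventional libraries (log2 3.63, SE 0.37, adjusted p = 1.99e-05), and Ccl4 was 0.235, 0.0652 and 0.192 and 2.85, 2.40 and 4.32 CPM (log2 4.25, SE 0.44, adjusted p = 2.18e-05). Neither was called in regulatory cells: Ccl3 was 0.542, 0.711 and 0.838 CPM in WT, against 1.19, 1.09 and 1.12 CPM in KO, and Ccl4 1.52, 1.84 and 0.902 and 1.06, 1.60 and 1.58 CPM, with overlap for Ccl4 alone. Both effects differed between cell types, by -2.95 (SE 0.52, adjusted p = 0.00268) and -4.25 (SE 0.57, adjusted p = 6.78e-04), and the call of Ccl3 was lost without the 4 mixed libraries (adjusted p = 0.0542). For Ccl4 the order of the cell types turned: regulatory libraries were higher than conventional ones in WT (log2 3.08, SE 0.46, adjusted p = 7.04e-05) and lower in KO (log2 -1.17, SE 0.34, adjusted p = 0.00940), the latter with an adjusted p of 0.136 under T cell gene scaling and 0.0850 without the 4 mixed libraries.

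Ccl24, an eotaxin, was 0.639, 0.554 and 0.416 CPM in WT, against 2.25, 0.858 and 1.16 CPM in KO conventional libraries, a call of 1.40 (SE 0.44, adjusted p = 0.0190) that was lost without WT conventional replicate 2 or 3 or KO conventional replicate 1, at adjusted p up to 0.103, and by limma-voom (0.0606). Regulatory libraries gave 1.62, 3.30 and 3.51 CPM in WT, against 2.22, 1.81 and 1.15 CPM in KO. The mean was lower in KO regulatory cells and the difference of effects was -2.12 (SE 0.58, adjusted p = 0.0238); it was lost in 5 of the 12 fits without 1 library (WT conventional replicates 2 and 3, KO conventional replicate 1, KO regulatory replicates 2 and 3), at adjusted p up to 0.0659, and with T cell gene scaling (0.0960). Ccl2, the CCR2 ligand, had 2 to 7 summed reads in each group and was not tested.

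The interferon-induced CXC chemokines were higher in regulatory libraries and in KO conventional ones. Cxcl10 was 1.18, 0.815 and 0.865 CPM in WT, against 2.63, 4.81 and 7.11 CPM in KO conventional libraries (log2 2.34, SE 0.47, adjusted p = 0.00217). It was 6.61, 7.01 and 14.8 CPM in WT, against 19.8, 11.5 and 10.7 CPM in KO regulatory libraries, overlapping at WT replicate 3. Cxcl9 was 0.807, 1.11 and 1.51 CPM in WT, against 3.08, 2.57 and 5.35 CPM in KO conventional libraries (log2 1.68, SE 0.30, adjusted p = 8.73e-04). Its regulatory values of 5.85, 5.50 and 6.48 CPM in WT, against 8.47, 5.62 and 7.29 CPM in KO overlapped, and the difference of effects (log2 -1.41, SE 0.41, adjusted p = 0.0293) was lost in 6 of the 12 fits without 1 library (WT conventional replicates 1 and 2, KO conventional replicate 3, KO regulatory replicates 2 and 3, WT regulatory replicate 3), at adjusted p up to 0.0740, with T cell gene scaling (0.154) and without the 4 mixed libraries (0.212). Their receptor Cxcr3 did not share the cell type difference of the ligands in WT: Cxcl9 and Cxcl10 were higher in regulatory cells by log2 2.37 and 3.32, while Cxcr3 was at 0.42 (SE 0.33, adjusted p = 0.280).

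Xcl1, lymphotactin, made by NK cells and activated T cells for XCR1-bearing dendritic cells, was 4.0, 2.38 and 1.09 CPM in WT, against 9.92, 9.10 and 12.9 CPM in KO conventional libraries (log2 2.10, SE 0.47, adjusted p = 0.00449). Regulatory libraries gave 7.47, 12.1 and 4.57 CPM in WT, against 4.44, 7.83 and 8.78 CPM in KO, with overlap. The difference of effects, -2.29 (SE 0.65, adjusted p = 0.0309), was lost in 6 of the 12 fits without 1 library (WT conventional replicates 2 and 3, KO conventional replicates 1 and 3, WT regulatory replicate 2, KO regulatory replicate 1), at adjusted p up to 0.0745, with no filter (0.0822), with the replicate block (0.0554) and without the 4 mixed libraries (0.10). The neutrophil-attracting Cxcl1 and Cxcl2 were at or under 0.425 CPM in all libraries, although their receptor Cxcr2 reached 56.6 CPM. Cxcl1 had 0 reads in all conventional libraries, 2 in WT and 12 in KO regulatory ones, and Cxcl2 had 1, 7, 14 and 23 reads in the 4 groups. Cxcl14 was read in KO regulatory libraries alone, with 7 reads, against 0 in the other 9 libraries, at least 1.92-fold above WT regulatory cells.

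**Figure D4:**
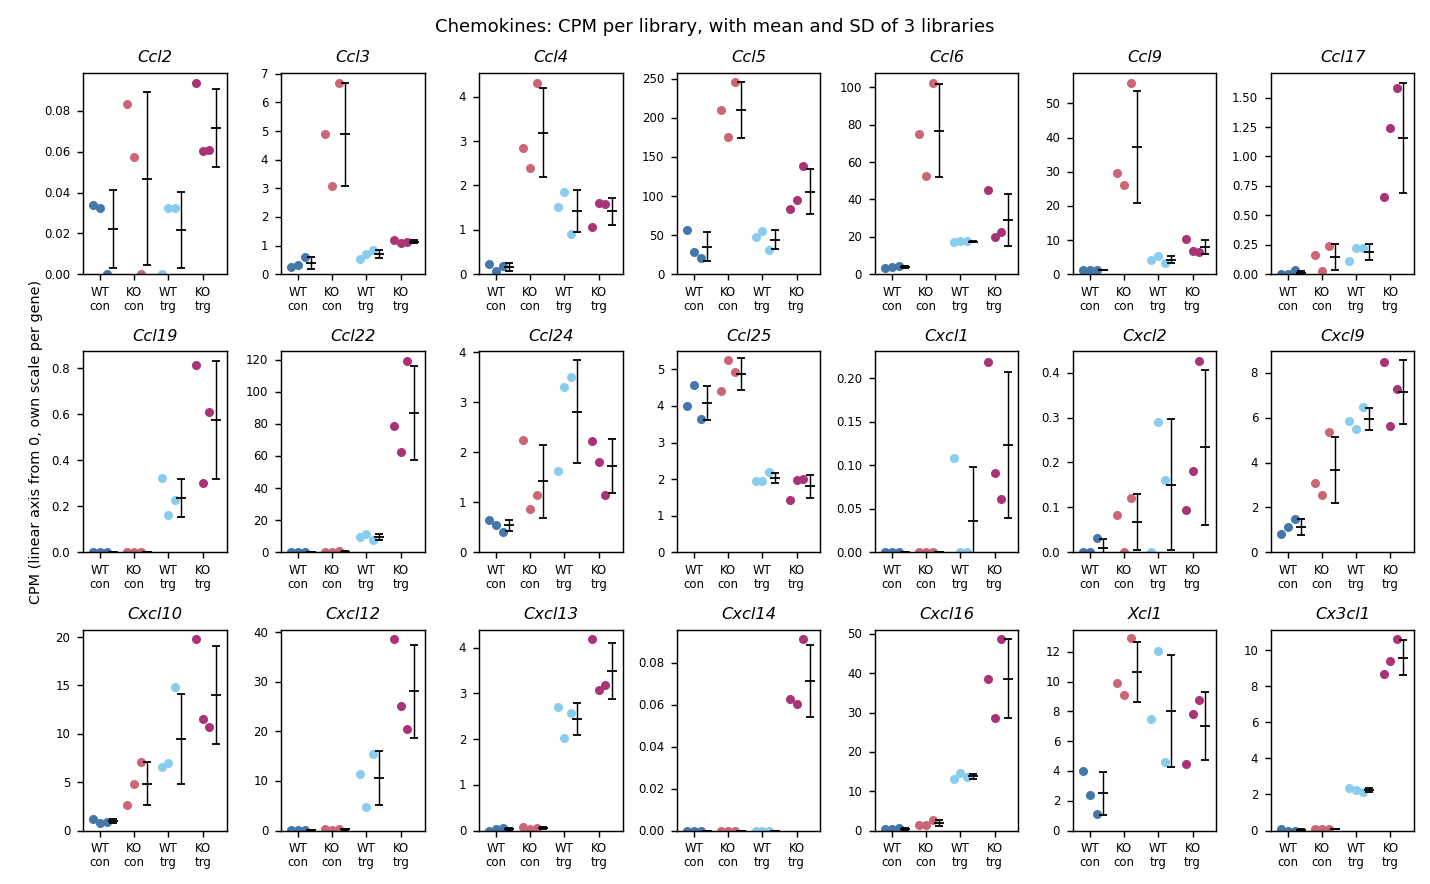
CPM of each of the 21 chemokines (linear axis from 0, a scale of its own per gene) in every library, 3 points per group, with the mean and SD beside them. Ccl22, Cx3cl1, Ccl17 and Cxcl16 are highest in KO regulatory libraries, and Ccl3, Ccl4, Ccl5, Ccl6 and Ccl9 in KO conventional ones.

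Between the cell types in WT, 12 receptors were higher and 1 lower in regulatory cells, and 13 of 16 chemokines were higher and 1 lower. The medians were 1.47 and 2.74 (2.50 with genes near 0 at their limit), against 0.07 over all genes. In this comparison 72.3% of all genes were called, 39% higher and 33.3% lower, so the count of called members is near the background while its direction is mostly upward. In KO cells the members split into 14 higher and 12 lower, with medians of -0.26 for receptors and 0.62 for chemokines, where 67.6% of all genes were called (36% higher, 31.6% lower). With T cell gene scaling, which moved the median of all genes to 0.71 and 0.62, the members split into 30 and 1 in WT and 15 and 7 in KO, and all genes tested into 9110 and 950 in WT and 8270 and 1070 in KO. The 2 comparisons share no libraries, but each shares its libraries with a KO comparison.

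Members called higher in regulatory cells of WT and lower in those of KO were Cxcr2, Ccr9, Ccl4, Ccl6 and Ccl9. For Cxcr2 the values were 3.87 (SE 0.60, adjusted p = 1.85e-04) in WT and -2.34 (SE 0.36, adjusted p = 2.26e-04) in KO. Ccl9 gave 1.80 (SE 0.35, adjusted p = 7.77e-04), not called by limma-voom (adjusted p = 0.0628), and -2.24 (SE 0.30, adjusted p = 5.92e-05), and Ccl6 2.26 (SE 0.35, adjusted p = 1.89e-04) and -1.40 (SE 0.31, adjusted p = 0.00219). The Ccl6 value of KO cells was -0.73 (adjusted p = 0.192) with T cell gene scaling, as Ccr9 (-0.40, adjusted p = 0.0959) also lost its call. From conventional to regulatory libraries, the mean neutrophil sum went from 10.8 to 80.9 CPM in WT and from 444 to 207 CPM in KO. The macrophage and monocyte sum went from 329 to 1033 CPM in WT and from 2336 to 1367 CPM in KO. The NK cell sum was lower in regulatory libraries of both genotypes, and the dendritic cell sum was higher. The part of such cells in the turn of these members was not tested. Ccr6, Ccr8, Cxcr5, Ccrl2, Xcr1, Ackr3, Ccl17, Ccl22, Cx3cl1, Cxcl9, Cxcl10, Cxcl12, Cxcl13 and Cxcl16 were higher in regulatory cells of both genotypes. Of these, Cxcl9 and Cxcl10 lost the call in KO without the 4 mixed libraries (adjusted p = 0.0623 and 0.0545).

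**Figure D5:**
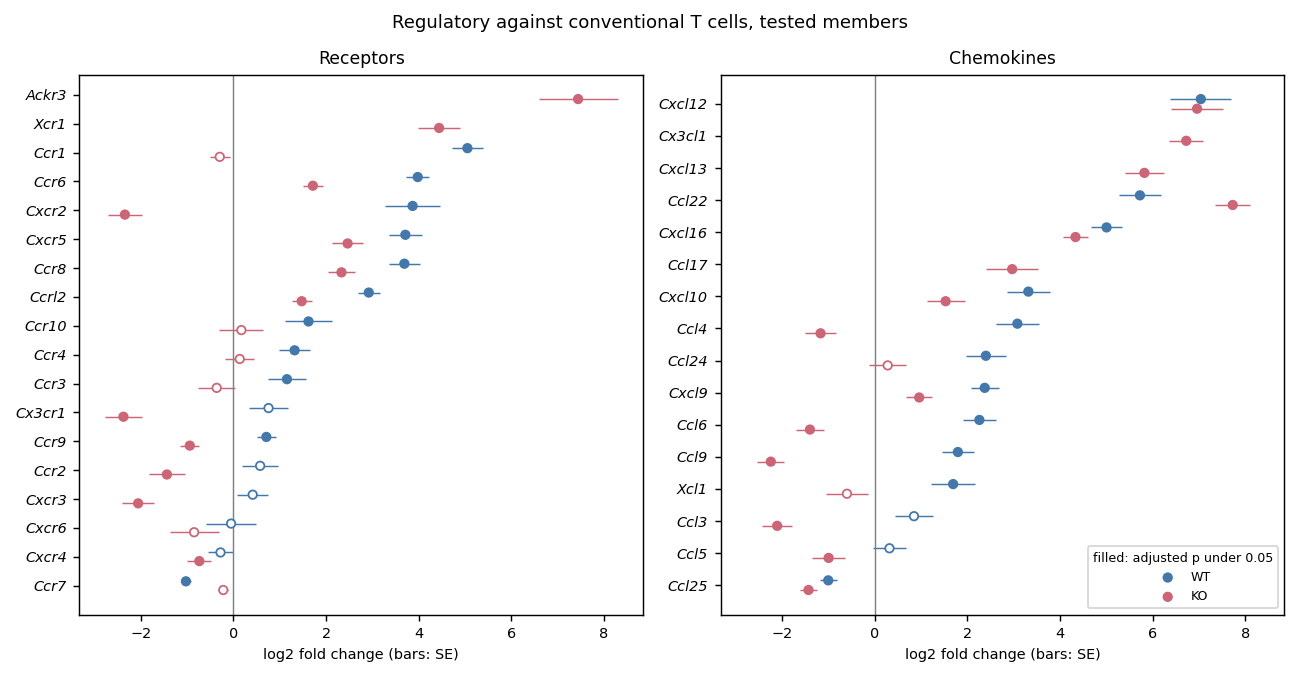
Log2 fold change of regulatory against conventional cells with its SE for the tested members, in WT (blue) and KO (red). Filled points have an adjusted p under 0.05, and a gene has no point where a group compared held at most 3 reads in all. Cxcr2, Ccl4, Ccl6 and Ccl9 lie above 0 in WT and below 0 in KO, while Ccl22 and Cxcl16 lie above 4 in both.

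Levels of different genes were compared per kilobase of exon, using group mean CPM divided by annotated exon length. In WT conventional cells Ccr7 led the receptors at 309 CPM per kb, ahead of Cxcr4 at 122, Cxcr6 at 22.1 and Cxcr3 at 18.6. In KO conventional cells Ccr7 (148) and Cxcr4 (124) still led, followed by Cxcr6 (60.1) and Cxcr3 (53.6). In regulatory cells the order was Ccr7, Cxcr4, Cxcr5 in both genotypes, at 152, 100.5 and 78.8 CPM per kb in WT and 127, 74.7 and 71.3 in KO. In KO regulatory cells Cxcr4 and Cxcr5 thus stood close together. Among chemokines Ccl5 led in all 4 groups, at 36.8, 219, 46.0 and 109.9 CPM per kb in WT conventional, KO conventional, WT regulatory and KO regulatory cells. The next was Xcl1 in WT conventional (4.76) and WT regulatory (15.4) cells, Ccl6 in KO conventional cells (42.8), and Ccl22 in KO regulatory cells (37.3).

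A further list of 44 genes for signalling below the receptors (G proteins, phosphoinositide 3-kinase gamma, DOCK2 and Rac, Rap1 and integrin activation, receptor kinases, arrestins and RGS proteins) changed less in size. In conventional cells 13 of 44 were called higher and 24 lower in KO, with a median of -0.16, against 48.6% of all genes called. With T cell gene scaling the median was 0.43 and the calls 20 higher and 0 lower, so the direction of the list is not fixed. Grk5 and Grk3, kinases that switch off receptors, rose by 1.72 and 3.31, and Rgs1, which speeds G protein inactivation, by 1.30, each also higher under T cell gene scaling (adjusted p = 1.49e-05, 3.37e-05 and 2.12e-05 by edgeR under TMM scaling). Rgs19, Grk6 and Pik3r5, a subunit of phosphoinositide 3-kinase gamma, were at -0.40, -0.52 and -0.52, but at 0.19, 0.07 and 0.07 when T cell genes set the scale. In regulatory cells 3 were called higher and 1 lower, or 9.09% of the list beside 7.77% of all genes, and 14 and 0 with T cell gene scaling. Prex1 (0.29), an exchange factor for Rac, Grk5 (0.71) and Tln1 (0.37), talin, were higher, and Rap1a (-0.25), an integrin-activating GTPase, was lower, but stood at 0.30 when T cell genes set the scale.

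Of 20 further chemokine and receptor genes, 12 were tested. In conventional cells 1 was called higher and 0 lower, or 8.33% of the 12 beside 48.6% of all genes. This was Ccl1, a CCR8 ligand, with 1 read in WT and 13 in KO, a ratio of 11.5-fold (95% interval 1.72 to 487) and an adjusted p of 0.0499. In regulatory cells 2 were higher and 0 lower, or 16.7% beside 7.77% of all genes, namely Ccl8 with 1 read in WT and 89 in KO, a ratio of 73.1-fold (95% interval 12.8 to 2918) and an adjusted p of 0.0188, and Ccl20, the CCR6 ligand, with 11 and 94 reads (log2 2.78, SE 0.69, adjusted p = 0.0393). All 3 are thinly covered, at group means of 1.26 CPM or less. With T cell gene scaling 5 were higher in conventional cells (Ccl1, Ccl20, Ppbp, Pf4 and Ccr1l1) and 4 in regulatory cells (Ccl8, Ccl20, Ppbp and Pf4), and 0 lower.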

How the data were processed

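Deposited values were raw counts of reads per gene for 12 libraries, as the authors deposited them. STAR 1.7.20 and GRCm38 are named, with no role given, per the submitters' processing notes. The library kit marks strand, per the series design text, and the table is named as reverse-stranded STAR counts. The annotation release and any trimming are not given in the sources used here. Rows that name no gene held 26.2 to 30.5% of each library's reads and were left out. Symbols were matched for 45143 of 45706 gene rows, and every column was mapped to a sample by its title.

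Genes were filtered with filterByExpr (minimum count 10, minimum total 15), scaled by TMM and tested with edgeR 4.0.16 (R 4.3.3), robust quasi-likelihood F tests, 1 term per group over all 12 libraries, with Benjamini-Hochberg adjustment over 15922 genes at 0.05. The biological coefficient of variation was 0.155. The test was checked on simulated counts. DESeq2 1.42.0, limma 3.58.1 (voom), other scalings, filters and left-out libraries were alternatives. A group with 0 reads was set against a floor of 3 counts over the group, and ratios with 1 to 3 reads carry exact 95% intervals, which cover counting error only. Gene coordinates and exon lengths came from GENCODE M21, and promoters from RefSeq GRCm38.p6.

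The members and the gene lists were chosen with earlier results of these data known. All 39 members are named. Of the signalling list, up to 3 genes higher and 3 lower with the smallest p in each KO comparison are named, and of the further family genes those called. Leaving out the pair of regulatory libraries with most Xist and Y-linked reads, a sex term and a non-robust prior were alternatives chosen after seeing the data.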

Additional observations from a re-analysis of the deposited data

Results flagged for a closer look

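For 17 of the 34 tested members the KO effect itself differed between regulatory and conventional cells, by the interaction term of the edgeR fit with adjusted p under 0.05. Values are the log2 effect in regulatory minus that in conventional cells. Among receptors the difference was -6.21 for Cxcr2, -5.35 for Ccr1, -3.13 for Cx3cr1, -2.47 for Cxcr3, -2.26 for Ccr6, -2.01 for Ccr2, -1.65 for Ccr9, -1.45 for Ccrl2 and -1.36 for Ccr8. Ccr7 alone among them was positive, at 0.81, since its fall was larger in conventional cells. Among chemokines the difference was -4.25 for Ccl4, -4.04 for Ccl9, -3.66 for Ccl6, -2.95 for Ccl3, -2.29 for Xcl1, -2.12 for Ccl24 and -1.41 for Cxcl9. Without the 4 regulatory libraries with Xist and Y-linked reads, the differences of Ccr2, Ccr6, Ccr8, Cx3cr1, Ccl3, Cxcl9 and Xcl1 were no longer called.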

How the results depend on the processing

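Of 102 member results called, 102 kept direction and call with DESeq2, RLE or upper-quartile factors, and 93 with T cell gene scaling or no filter; none of the 102 changed direction under any alternative run. Of 68 member results not called, 22 became called with T cell gene scaling and 12 with DESeq2. In regulatory cells, KO against WT called 1237 genes, 2 receptors and 4 chemokines. T cell gene scaling gave 5194, 8 and 9, DESeq2 2010, 4 and 7, and the fit without the 4 libraries with Xist and Y-linked reads, which leaves 1 library in each regulatory group and assumes that it varies like the others, 220, 0 and 1. A fit of the regulatory groups alone called 369 genes, no filter 1 receptor, and leaving out WT regulatory replicate 3 and KO regulatory replicate 1 1 receptor. Leaving out 1 library at a time gave 487 (without KO regulatory replicate 3) to 1965 genes (without WT regulatory replicate 3), 0 to 3 receptors and 3 to 5 chemokines. The difference of effects called 3373 genes, 10 receptors and 7 chemokines, against 862 genes with T cell gene scaling, and 2098, 6 and 4 without the 4 libraries. Leaving out 1 library gave 2254 to 3714 genes, 8 to 11 receptors and 4 to 8 chemokines. The cause of these shifts was not tested, and no fit set the smaller number of libraries apart from which libraries were left out.

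The replicate numbers are shared by the groups but do not mark pairs: deviations of same-numbered libraries correlated at -0.518 to 0.176, above 0.1 in 4 of 18 pairs, and 4 of 12 libraries correlated best with their own number. With the replicate number as a block, 98 of the 102 calls were kept; those lost were Ccr2 (0.0529), Ccr8 (0.0516) and Xcl1 (0.0554) in the difference of effects and Cxcr6 (0.0615) between conventional groups, by adjusted p. The block called 868 genes in the regulatory KO comparison. Among groups with means under 1 CPM, those of Ccl2, of Ccl17 outside KO regulatory cells and of Xcr1 in conventional cells rested on at most 26 summed reads each. The part of depth was not tested.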
